A study of Mus musculus with 12 samples.

Results

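RNA polymerase II (Pol II) was measured over RNA polymerase III (Pol III) genes of mouse liver by chromatin immunoprecipitation with sequencing (ChIP-seq), using an antibody against RPB2. The 2 RPB2 libraries were set against 2 input libraries, which hold sonicated chromatin that was not precipitated. These are 4 of the 12 libraries of the study. All 532 stretches listed by the 12 deposited coverage files were used, and adjoining lines were joined into one stretch. A stretch is usually 1 gene with 150 bp on each side, and stretches were 370 to 1170 bp long with a median of 373 bp. Of these, 478 had enough coverage to be tested and 54 did not.

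The study mapped Pol III, Pol II and histone marks over Pol III genes. RPB2 and input libraries came from livers of C57/BL6 males, 12 to 14 weeks of age, on a cycle of 12 h light. For the last 7 days the animals fed between Zeitgeber time (ZT, hours after lights on) 12 and 24. Livers of 5 mice were taken at ZT 2 and of 5 more at ZT 26, a repeat of the same hour on the next day. Neither the time behind each replicate number nor any pooling of livers is stated in the labels. The p-values thus rest only on spread between libraries, pooled over all stretches.

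Pol II transcribes protein-coding genes and most spliceosomal snRNA genes, and RPB2 is its second-largest subunit, which forms much of the catalytic centre. Pol II commonly accumulates just past the starts of active genes, and it continues past the end of a gene before it is released. Pol III transcribes tRNA, 5S rRNA, U6, 7SK and other short RNA genes, many of which lie close to Pol II genes. A ChIP signal at a Pol III gene can therefore belong to a neighbouring Pol II gene, and fragments of about 250 bp reach beyond the bound site.

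Coordinates below are of the mm9 build, and tRNA genes are named by a predicted amino acid and anticodon. Distances to a start run from the nearer edge of the stretch, which usually lies 150 bp outside the gene. The sequences that follow are those on which the main contrasts turn, read 5′ to 3′. The first 6 are tRNA genes on their own strand with the anticodon in capitals. The tRNA-Glu and tRNA-Pro pairs are shown because copies of almost the same gene differed widely in RPB2, and the tRNA-Trp and tRNA-Arg genes because of their outlines. The tRNA-Glu genes lie at chr14:79881475-79881546 (+ strand) and chr9:104310997-104311068 (− strand). The tRNA-Pro genes lie at chr14:51710322-51710393 (+ strand) and chr3:51162276-51162347 (+ strand). The tRNA-Trp gene is at chr10:90644157-90644228 (− strand) and the tRNA-Arg gene at chr11:106874180-106874252 (+ strand). The seventh, chr9:46081027-46081146 on the + strand, ends at the base before the annotated start of Zfp259, with the 21 bases around the highest RPB2 coverage in capitals. The eighth, chr9:65049432-65049551 on the + strand, reaches into a U5 snRNA gene on the − strand, whose bases are in capitals.
tRNA-Glu (TTC) near Wbp4: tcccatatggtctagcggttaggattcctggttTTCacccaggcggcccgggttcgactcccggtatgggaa
tRNA-Glu (TTC) near Acpp: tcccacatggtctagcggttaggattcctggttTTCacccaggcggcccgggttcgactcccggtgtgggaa
tRNA-Pro (TGG) near Ang: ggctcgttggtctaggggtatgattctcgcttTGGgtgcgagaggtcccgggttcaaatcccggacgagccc
tRNA-Pro (TGG) near Elf2: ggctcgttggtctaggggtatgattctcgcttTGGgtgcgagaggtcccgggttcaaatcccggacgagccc
tRNA-Trp (CCA) near Tmpo: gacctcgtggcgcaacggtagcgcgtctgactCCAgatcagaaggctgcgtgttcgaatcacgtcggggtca
tRNA-Arg (CCG) near Kpna2: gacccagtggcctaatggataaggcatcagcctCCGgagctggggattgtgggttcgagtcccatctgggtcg
before Zfp259: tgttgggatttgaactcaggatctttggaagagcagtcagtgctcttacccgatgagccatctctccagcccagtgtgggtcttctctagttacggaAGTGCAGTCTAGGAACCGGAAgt
beside the U5 gene: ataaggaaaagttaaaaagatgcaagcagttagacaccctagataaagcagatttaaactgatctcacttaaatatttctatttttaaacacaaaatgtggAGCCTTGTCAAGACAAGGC

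Over the stretches the RPB2 libraries held 14779 and 13848 read equivalents of 76 bp, and the input libraries 3563 and 3365. A stretch held a median of 8.34 and 10.7 reads in the RPB2 libraries and 5.41 and 5.50 in the input libraries, so depth limits every low stretch. Reads outside the stretches are unknown. RPB2 reads were concentrated in few places: the 10 fullest stretches held 35.0% and 32.0% of RPB2 reads, against 10.1% and 9.15% of input reads. Mean coverage per base exceeded 10 in 48 and 47 stretches in the RPB2 libraries and in 0 stretches in each input library. None of the liver marker genes examined lies on a stretch, so the tissue label could not be checked. The nearest, Apoa5, which encodes an apolipoprotein made in liver, ends 608 bp before one.

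RPB2 was above input in 121 of the 478 tested stretches (25.3%) and below it in 34 (7.11%), with limma at a Benjamini-Hochberg adjusted p under 0.05. Each library was first divided by its median ratio to the 4-library average, so that above means more than at the typical stretch. The test used log2(scaled coverage + 0.2), which understates folds of low stretches. Its standard errors came wholly from the trend of spread with coverage over all stretches, so very small p-values do not reflect a stretch's own replicates. Both RPB2 libraries lay above both input libraries in 118 of the 121 stretches, and in 174 of all 478 (36.4%). In 7 of the 121 an input library had no reads, so the fold there rests in part on the pseudocount. Both lay below both input libraries in 32 of the 34 and in 145 of all 478 (30.3%). The split between the directions depends on the scaling. It was 57 above (11.9%) and 208 below (43.5%) with file totals, and 214 (44.8%) and 1 (0.209%) with scaling to the stretches lowest in Pol III. With coverage as deposited it was 189 (39.5%) and 4 (0.837%). Relative to the scaling used, these 3 moved the median log2 difference by -1.002, 1.16 and 0.77. Without RPB2 replicate 1 the counts were 61 and 9, without RPB2 replicate 2 they were 61 and 8, and without input replicate 2 they were 104 and 8. A fit of all 12 libraries, with the same scaling, gave 90 above (18.8%) and 30 below (6.28%).

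The highest RPB2 difference lay between Apoa5 and Zfp259, which encodes a zinc finger protein, at chr9:46080610-46081261. This stretch matched no annotated short RNA gene and no predicted tRNA gene, and it reaches over the annotated Zfp259 start. Repeats were not annotated, so a Pol III element of that kind would be missed. Mean coverage was 161.7 and 130.8 in the RPB2 libraries and 1.05 and 0.82 in input. The log2 difference was 6.19 (SE 0.31, adjusted p = 4.47e-72). RPB2 had 2 summits there, and the higher one, of 278 and 224 reads, stood 13 bases before the Zfp259 start within the capitals of the sequence above. Coverage in the flank toward Apoa5 averaged only 40.5 and 23.7 in the RPB2 libraries, and 0.36 and 0.37 in input. The largest step up between neighbouring bases was 10 and 8 reads in the RPB2 libraries, so no single position gained many reads at once. Pol III coverage, the mean of the RPC1 and RPC4 libraries, was low at 4.78 ± 1.49 (SD, n = 4).

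The second highest, chr9:65049094-65049551, reaches into the 3′ end of an annotated U5 gene. U5 is a Pol II-made RNA of the spliceosome. RPB2 coverage was 116.2 and 50.7 and input coverage 1.33 and 0.36, with a log2 difference of 5.59 (SE 0.35, adjusted p = 1.13e-48). Both RPB2 libraries climbed toward the U5 gene, with 225.5 and 75.7 in the flank that holds it and 25.7 and 21.6 in the other flank. Input had 0.19 and 0.90 in the U5 flank and 1.35 and 0.21 in the other, so input replicate 2 was also higher on the U5 side and input replicate 1 was not. The RPB2 libraries differed from each other by more than 2 times here, replicate 1 being the higher, and the log2 difference was 4.94 without RPB2 replicate 1 and 6.24 without RPB2 replicate 2. It was 6.27 without input replicate 1 and 4.90 without input replicate 2. Only 1 of the 4 tested stretches within 1000 bp of a U1 to U12 gene was above input, a class added after the values were seen.

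**Figure D1:**
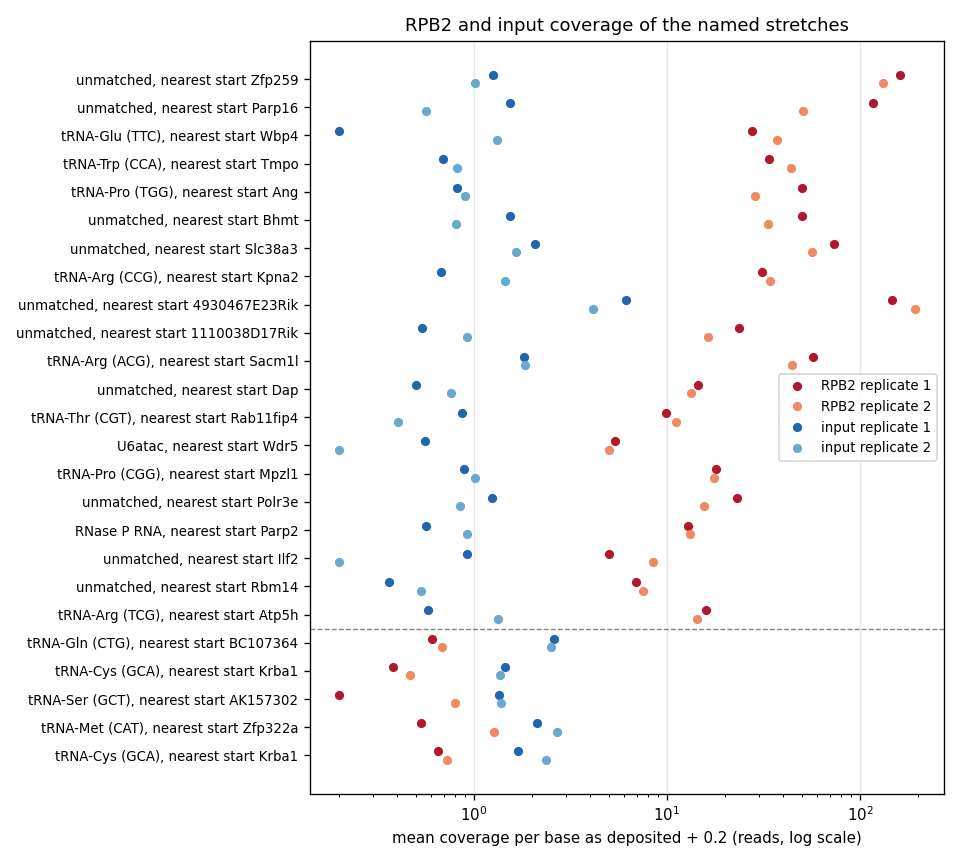
Mean coverage per base plus 0.2, on a log axis, of the 20 stretches with the largest RPB2 difference and, below the dashed line, the 5 with the lowest. Points are single libraries, RPB2 in red and orange and input in blue, and all RPB2 points of the upper 20 lie right of the input points.

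Further unmatched stretches lay past the 3′ ends of 2 genes known for their expression in liver. Bhmt encodes betaine-homocysteine methyltransferase, and the stretch at chr13:94384987-94385514 lies 1332 bp past its end. RPB2 coverage there was 49.96 and 33.1 against 1.34 and 0.61 in input (log2 difference 4.39, SE 0.37, limma adjusted p = 2.94e-28). RPB2 was higher on the side of Bhmt, at 86.7 and 66.6 in that flank, than in the far flank at 9.46 and 2.89. Input leaned the same way at few reads, with 3.31 and 0.49 on the Bhmt side and 0.037 and 0.12 in the far flank. Slc38a3 encodes a glutamine transporter, and the stretch at chr9:107551218-107551973 lies 997 bp past its end. RPB2 coverage was 72.9 and 55.9 against 1.88 and 1.45 in input (log2 difference 4.27, SE 0.32, limma adjusted p = 1.74e-34). Coverage at Slc38a3 stayed high across the whole stretch, with a dip near its middle in both RPB2 libraries. Of all tested stretches lying within 5000 bp past a gene end and over 1000 bp from any start, 28 of 47 were above input and 0 below, against 25.3% and 7.11% over all tested stretches. With file totals the counts were 17 and 6. This class was also added after the values were seen.

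A different shape appeared at chr8:19784551-19785003, which overlaps the annotated pseudogene Gm10060. RPB2 coverage was 145.6 and 192.5 and input coverage 5.93 and 3.96 (log2 difference 4.18, SE 0.24, limma adjusted p = 2.37e-57). It formed 1 central summit of 605 and 834 reads, with flanks of 14.6 to 44.8. Input was also highest in the middle part, at 12.3 and 7.53, with flanks of 1.39 to 2.92. Coverage in the libraries titled H3K4, whose antibody field names another mark, was 350.6 ± 196.2 (SD, n = 2). Fractional values covered 58.3% and 50.1% of bases in the RPB2 libraries and 46.6% and 43.7% in input. Reads at such bases seem to have been divided among similar places, so this value is uncertain.

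**Figure D2:**
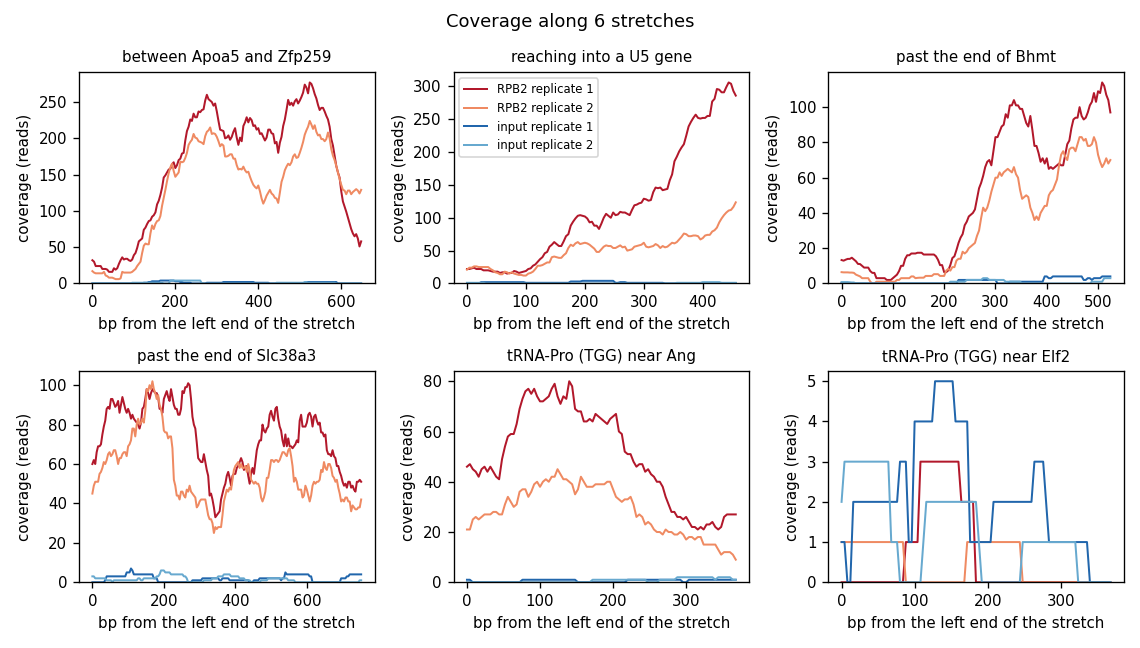
Coverage in reads along 6 stretches, against distance in bp from the left end, for the 2 RPB2 and 2 input libraries. RPB2 climbs toward the U5 gene and toward Bhmt, stays high past Slc38a3, and is no higher than input's peak at the tRNA-Pro gene near Elf2, whose panel has a much smaller vertical scale.

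Among tRNA genes, 89 of 326 tested stretches were above input (27.3%) and 30 below (9.20%), near the 25.3% and 7.11% over all tested stretches, with a median log2 difference of 0.06, against -0.06 over all tested stretches. The highest was the tRNA-Glu (TTC) gene printed first, on a stretch that overlaps Elf1, a transcription factor gene, and 250 bp from the start of Wbp4, a splicing factor gene on the other strand. RPB2 coverage was 27.5 and 37.1, and input coverage was 0 and 1.12. The log2 difference of 5.29 (SE 0.43, limma adjusted p = 1.62e-30) rests in part on the pseudocount, since 1 input library had no reads. It was 3.69 without that library, input replicate 1, and 6.89 without input replicate 2. The stretch of the tRNA-Trp (CCA) gene stood 9248 bp from the nearest start, that of Tmpo. Its RPB2 coverage was 33.4 and 43.8 and its input coverage 0.49 and 0.61 (log2 difference 4.90, SE 0.40, limma adjusted p = 1.32e-30). Proximity to an annotated protein-coding start was thus not shared by all of the highest tRNA genes.

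Copies of one tRNA gene could lie at opposite ends of the range. The 2 tRNA-Pro (TGG) genes printed above are identical in 72 of 72 bases. The Ang copy lies on a stretch 209 bp from the start of Ang, which encodes the secreted ribonuclease angiogenin. It had RPB2 coverage of 50.01 and 28.4 and input coverage of 0.61 and 0.70. Its log2 difference was 4.68 (SE 0.39, limma adjusted p = 4.83e-29). The copy on a stretch 17560 bp from the Elf2 start had RPB2 coverage of 0.61 and 0.43 and input coverage of 2.06 and 1.17. Its log2 difference was -1.99 (SE 0.61, limma adjusted p = 0.0062). The call below depends on the scaling. Of 13 tested tRNA-Pro stretches, 6 were below input with file totals. None was below with scaling to the stretches lowest in Pol III or as deposited. No base of either copy had fractional coverage in any of the 4 libraries.

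Other pairs showed the same contrast, and all pairs were chosen after their values were seen. The tRNA-Glu (TTC) genes are identical in 70 of 72 bases, and the copy near Acpp had RPB2 coverage of 0.72 and 0.66 and input coverage of 1.82 and 2.88 (log2 difference -2.23). A tRNA-Ser (GCT) copy lies on a stretch 138 bp from the start of Casc5, a kinetochore gene. It had RPB2 coverage of 15.9 and 14.7 and input coverage of 1.19 and 1.36. A second copy, identical in 80 of 82 bases, lies on a stretch 2147 bp from the start of AK157302. This copy had 0 and 0.59 in RPB2 and 1.15 and 1.18 in input. A pair of tRNA-Gln (CTG) genes identical in 71 of 72 bases had log2 differences of 1.21 beside Rab11a and -2.69 near BC107364. With scaling to the stretches lowest in Pol III, 0 tRNA-Ser, 0 tRNA-Glu and 1 tRNA-Gln stretches were below input. As deposited the counts were 0, 1 and 1. Pol III coverage differed in the same direction as RPB2 in these pairs, and was 78.5 at the Ang copy and 24.2 at the Elf2 copy of tRNA-Pro. Its part in the difference was not tested.

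The 4 tRNA genes nearest before Ang formed a graded series. They are listed by distance of their stretch to the Ang start and were chosen after their values were seen. Other tRNA genes lie farther before Ang and were left out of the series. A tRNA-Leu (TAG) gene at 8016 bp had RPB2 coverage of 3.55 and 2.80, and a tRNA-Thr (TGT) gene at 2205 bp had 4.90 and 7.55. A tRNA-Tyr (GTA) gene at 1349 bp had 14.9 and 14.4, and the tRNA-Pro gene at 209 bp had 50.01 and 28.4. All 4 were above input, and RPB2 was higher the closer the gene stood to Ang in both libraries. On chromosome 14 as a whole 11 of 13 tested stretches were above input, against 25.3% over all tested, and 7 of 13 with file totals. On chromosome 6, which holds a cluster of tRNA-Cys genes, 6 of 58 were above and 15 below, or 1 and 42 with file totals and 13 and 0 with scaling to the stretches lowest in Pol III.

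Stretches within 1000 bp of a protein-coding start were above input in 30 of 54 cases and below in 0, against 25.3% and 7.11% over all tested stretches. The counts were 17 and 7 with file totals, and 45 and 0 with scaling to the stretches lowest in Pol III. Their median log2 difference was 1.28. Of 332 stretches outside protein-coding genes, 87 were above and 32 below, with a median of -0.05. Of 92 inside such genes but farther from a start, 4 were above and 2 below. Of these, 49 are 5S rRNA stretches, and the other 43 had 4 above. Per library, the median difference from input near starts exceeded that elsewhere by 1.63 and 1.31 in RPB2 replicates 1 and 2, a mean of 1.47 ± 0.23 (SD, n = 2). The design of 2 libraries against 2 allows no exact test of it under 0.05, so it is given without one.

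**Figure D3:**
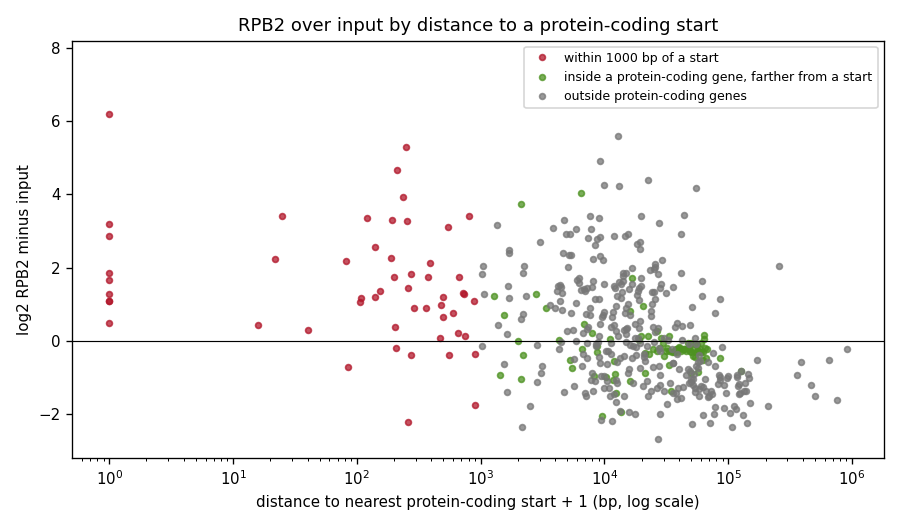
Log2 difference of RPB2 from input for each tested stretch, against distance in bp to the nearest protein-coding start plus 1, on a log axis, coloured by position. Stretches within 1000 bp of a start, in red, lie mostly above 0, and stretches over 20000 bp away mostly below it.

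With the scaling used, the share above input was lower in each band of distance farther from a start. It was 6 of 9 at 0 bp and 13 of 20 at 1 to 250 bp. Farther out it was 11 of 25 at over 250 and up to 1000 bp, and 20 of 52 at up to 5000 bp. It was 53 of 167 at up to 20000 bp and 18 of 205 beyond that. With file totals the order did not hold, at 3 of 9, 10 of 20, 4 of 25 and 10 of 51 in the bands up to 5000 bp. Nor did it hold in the fit of all 12 libraries, at 4 of 9, 11 of 20, 6 of 25 and 20 of 52. It held with scaling to the stretches lowest in Pol III and as deposited. Other measures moved with position. Near starts the median Pol III coverage was 81.1, H3K4-titled coverage 7.10 and CpG content 4.51 per 100 bp, against 20.3, 1.76 and 3.23 over all tested stretches. Their part in the result was not tested.

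Genes of varied function supplied the starts. A tRNA-Arg (ACG) gene lies on a stretch 235 bp from the start of Sacm1l, a lipid phosphatase gene. It had RPB2 coverage of 56.6 and 44.2 and input coverage of 1.63 and 1.63 (log2 difference 3.93, limma adjusted p = 6.19e-28). A stretch inside Polr3e, which encodes a Pol III subunit, stood 798 bp past its start. RPB2 coverage was 22.8 and 15.3 and input coverage 1.04 and 0.64 (log2 difference 3.40, limma adjusted p = 3.72e-14), and Pol III coverage was 104.4. A stretch 120 bp before Ilf2, which encodes an RNA-binding factor, had RPB2 coverage of 4.81 and 8.23 and input coverage of 0.73 and 0. Its log2 difference of 3.35 (limma adjusted p = 4.7e-09) rests in part on the pseudocount, and the call was lost without RPB2 replicate 2 (3.03). It was 4.59 without input replicate 1 and 2.11 without input replicate 2.

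The annotated short RNA genes differed among themselves. Both 7SL genes, which encode the RNA of the signal recognition particle, were above input. The copy at the start of Rps29, a ribosomal protein gene, had RPB2 coverage of 18.6 and 19.2 and input coverage of 1.67 and 0.55 (log2 difference 3.20, SE 0.41, limma adjusted p = 3.05e-13), or 3.81 without input replicate 1 and 2.60 without input replicate 2. The copy near Nemf lies on a stretch 3864 bp from the Nemf start. This copy had 14.7 and 18.1 in RPB2 and 1.00 and 0.81 in input (log2 difference 3.09, SE 0.42, limma adjusted p = 7.78e-12). The RNA of RNase P trims the 5′ ends of tRNAs, and the stretch of its gene ends 24 bp from the start of Parp2. RPB2 coverage there was 12.6 and 12.9 and input coverage 0.36 and 0.72 (log2 difference 3.40, SE 0.46, limma adjusted p = 4.08e-12).

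The U6atac gene, whose RNA serves the minor spliceosome, had RPB2 coverage of 5.17 and 4.82 and input coverage of 0.36 and 0. Its log2 difference of 3.42 (SE 0.60, limma adjusted p = 2.2e-07) rests in part on the pseudocount, and the call was lost without RPB2 replicate 1 (3.32) and without RPB2 replicate 2 (3.52). It was 4.27 without input replicate 1 and 2.57 without input replicate 2. Of 5 U6 genes, 3 were above input, with log2 differences of 1.23 to 1.82. Each of these 3 calls was lost without RPB2 replicate 1 (1.35 to 1.97) and without RPB2 replicate 2 (1.11 to 2.16). Near Arhgap5, 2 of them were also lost without input replicate 1 (1.30 and 1.42), and 1 without input replicate 2 (1.16). The U6 gene near Med16 missed the threshold at 1.17 (limma adjusted p = 0.0507). The U6 gene near Skor1 stood at -0.46, which turned to 0.56 with scaling to the stretches lowest in Pol III and to 0.23 as deposited.

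The RNase MRP gene, whose RNA takes part in rRNA processing, had RPB2 coverage of 3.46 and 4.84 and input coverage of 0.73 and 0.81. Its log2 difference of 1.36 (SE 0.49, limma adjusted p = 0.0219) lost its call without RPB2 replicate 1 (1.54), RPB2 replicate 2 (1.19) or input replicate 1 (1.21). Of the 2 Y RNA genes near Pdia4, which encode RNAs bound by the Ro protein, 1 was above input at 1.96 (1.61 and no longer called without RPB2 replicate 1) and the other stood at 1.31 (limma adjusted p = 0.0706). The vault RNA gene near Zmat2, named after its values were seen, had RPB2 coverage of 26.7 and 26.9 against 1.46 and 1.76 in input (log2 difference 3.06, limma adjusted p = 1.12e-14).

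The 7SK gene, whose RNA holds a Pol II elongation factor inactive, was not called. Its RPB2 coverage was 3.01 and 3.17 and its input coverage 0.97 and 0.96, with a log2 difference of 0.71 (SE 0.50, limma adjusted p = 0.258). The difference was -0.33 with file totals, -0.58 with the flanks alone and 1.54 with the gene alone, without a call in any of these. It was 1.87 with scaling to the stretches lowest in Pol III and 1.498 as deposited, and 7SK was called above input with both. The call at 7SK thus depends on the scaling. The 5S rRNA genes, which encode the smallest rRNA of the large ribosomal subunit, were called in 0 of 49 tested stretches in either direction. With file totals 38 of the 49 were below input, with scaling to the stretches lowest in Pol III 3 were above, and as deposited 0 were called. Their log2 differences ran from -0.52 to 0.17, with a median of -0.24. All bases of the median 5S stretch had fractional RPB2 coverage, so these repeated copies share reads and are not separate measurements.

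The lowest stretches held few reads. At the tRNA-Gln (CTG) gene near BC107364, RPB2 coverage was 0.41 and 0.49 and input coverage 2.40 and 2.31. Its log2 difference of -2.69 (SE 0.56, limma adjusted p = 1.33e-05) rested on about 2.00 and 2.38 reads in RPB2 and 11.8 and 11.3 in input. The other 4 lowest were tRNA-Cys (GCA), tRNA-Ser (GCT), tRNA-Met (CAT) and a second tRNA-Cys (GCA) gene, at -2.35, -2.34, -2.28 and -2.26. Each of these 4 lost its call without some library: the first without RPB2 replicate 1 (-2.25) or 2 (-2.44), and the second without RPB2 replicate 1 (-1.53) or 2 (-3.16) or input replicate 2 (-2.24). The third lost it without RPB2 replicate 1 (-1.74) and the fourth without input replicate 2 (-1.92). Of the 51 tested tRNA-Cys stretches, 15 were below input and 4 above, with a median of -1.24. In the chromosome 6 cluster of these genes 14 of 43 were below and 1 above, against 1 and 3 of the 8 elsewhere. In the cluster 39 were below with file totals, 0 with scaling to the stretches lowest in Pol III and 1 as deposited. The tRNA-Arg stretches were above input in 10 of 21 cases and tRNA-Leu stretches in 9 of 17, with 0 and 2 below, against 25.3% above over all tested. With file totals 8 tRNA-Arg stretches were above and 3 below, and 0 tRNA-Leu stretches were above and 5 below.

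Stretches above input mostly held much Pol III. Their median Pol III coverage was 117.5, against 8.62 in tested stretches not above input. Pol III coverage was under 10 in 10 of the 121, and 9 of those 10 were unmatched. These include the stretches by Zfp259, the U5 gene, Bhmt, Slc38a3 and Gm10060.

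Summed over stretches, RPB2 coverage was higher in the gene than in its flanks, by less than Pol III coverage was. Over the 121 stretches above input, the log2 ratio of coverage per base in the flanks to that in the gene was -0.51 and -0.62 in the RPB2 libraries and -0.10 and 0.16 in input. It was -0.94 for RPC1 and -1.05 for RPC4, both Pol III subunits and each the mean of 2 libraries. The RPB2 value minus input was -0.59. Over the 94 of these stretches with room for a single gene it was -0.43, with -0.32 and -0.27 in the RPB2 libraries and -0.05 and 0.31 in input. Since these stretches were chosen for RPB2 over input, the ratio describes their shape only, with no test.

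Summed over stretches, RPB2 coverage leaned to the side of a nearby start. Over the 54 stretches within 1000 bp of a start, the log2 ratio of the flank nearer to it to the other flank was 0.96 and 1.12 in the RPB2 libraries, against 0.28 and 0.05 in input. The mean difference of 0.88 fell to 0.63 without the stretch by Zfp259, to 0.35 over stretches with room for a single gene, and to 0.29 as a median over stretches. A few high stretches thus carry much of it. The medians were 0.42 and 0.79 in the RPB2 libraries and 0.54 and 0.09 in input, so the groups overlapped there.

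RPB2 also leaned upstream of the tRNA genes. In the 81 stretches above input that hold a single tRNA gene, mean RPB2 coverage was 13.7 and 13.1 upstream, 12.5 and 11.3 in the gene and 6.24 and 5.57 downstream. Input coverage was 1.15 and 0.99 upstream, 1.10 and 0.69 in the gene and 0.98 and 0.82 downstream. The log2 ratio of upstream to downstream was 1.14 and 1.23 in the RPB2 libraries and 0.23 and 0.28 in input. This measure was added after the data were seen. RPC1 gave 0.86 and RPC4 -0.34, so the 2 Pol III subunits differed from each other in the same flanks.

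**Figure D4:**
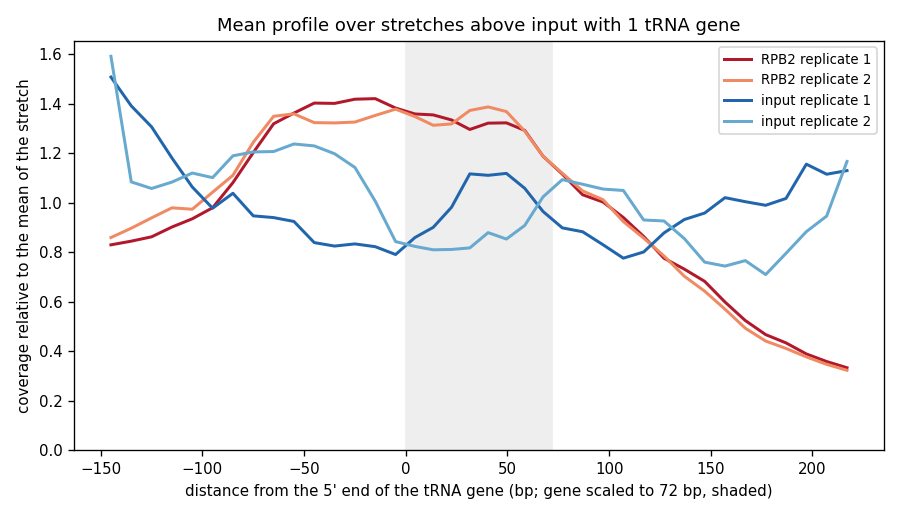
Mean coverage relative to the mean of each stretch over the stretches above input with a single tRNA gene, against distance in bp from the 5′ end of the gene. Both RPB2 libraries have a plateau from before the gene into it and drop to about 0.33 at the far downstream end, while the 2 input libraries, with few reads, cross each other.

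The lean was present in many tRNA genes and not in all. Both RPB2 libraries were higher upstream than downstream in 54 of the 81 stretches and higher downstream in 12. Input was higher upstream in both libraries in 25 and downstream in 14. Among the 62 of these stretches over 1000 bp from any start, the numbers for RPB2 were 40 and 10. In the 223 tested single tRNA stretches not above input, the log2 ratio was 0.10 and 0.18 in the RPB2 libraries and 0.13 and 0.12 in input.

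Single genes show the range of outlines. At the tRNA-Arg (CCG) gene near Kpna2, printed above, RPB2 coverage was 64.6 and 75.1 in the upstream flank, 14.1 and 14.5 in the gene and 5.41 and 2.61 downstream. Input there had 0.17 and 1.56 upstream and 0.19 and 1.44 downstream. At the tRNA-Trp gene the upstream flank had 63.3 and 88.3 and the downstream flank 5.89 and 4.03 in RPB2. Input leaned the same way there at few reads, with 0.79 and 0.65 upstream and 0.073 and 0.047 downstream. In these 2 genes the upstream flank had the highest RPB2 coverage of the 3 parts. At the tRNA-Glu gene near Wbp4 the downstream flank was above the upstream flank, with 28.8 and 47.2 against 17.5 and 23.1. The gene had 45.7 and 45.0, so it was the highest part in RPB2 replicate 1 only. Input replicate 2 also leaned downstream, with 0.41 upstream and 1.64 downstream, and input replicate 1 had no reads. At the U6atac gene the RPB2 summit was central, with 8.82 and 8.83 in the gene and 2.01 to 4.25 in the flanks. Input replicate 1 was also highest in that gene, at 1.21 from 2 reads, and input replicate 2 had no reads.

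Over the whole range of coverage, the 2 RPB2 libraries ranked the stretches alike. Across the 478 tested stretches they had a Spearman's rho of 0.852 and a Pearson's r of 0.881 on the log2 scale, given as a description since neighbouring stretches share reads and both libraries share the wide range of coverage. The input libraries had 0.324 and 0.396, over a much narrower range. Within bands of mean RPB2 coverage, rho between the RPB2 libraries was high only in the highest band. It was 0.77 in the 120 stretches from 4.47 to 169, and 0.16 in the 116 from 2.06 to 4.46. It was -0.33 in the 122 from 1.10 to 2.05 and -0.07 in the 120 from 0.20 to 1.09. The lower bands are narrow, so these values are a description too. Replicates lay a median of 0.51 apart on the log2 scale for RPB2 and 0.49 for input, and the gap exceeded 1 in 61 RPB2 and 112 input stretches.

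**Figure D5:**
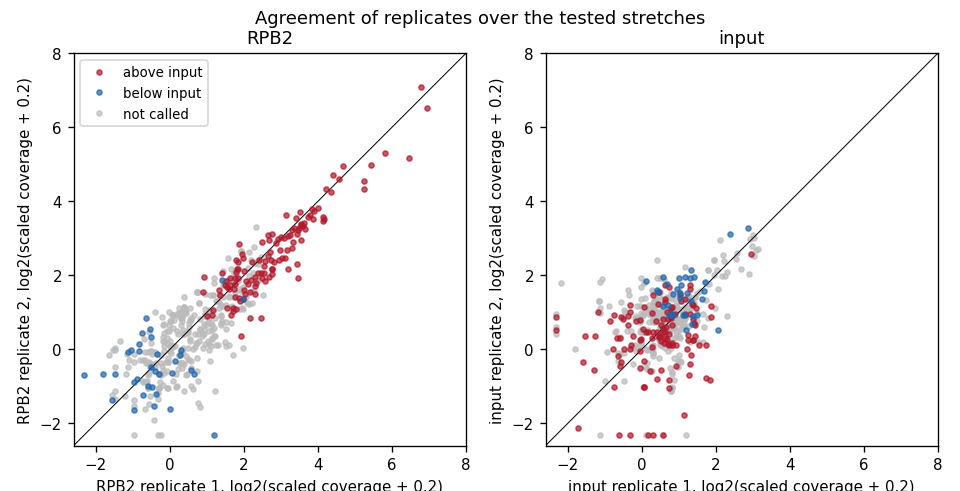
Log2(scaled coverage + 0.2) of replicate 2 against replicate 1 over the 478 tested stretches, for RPB2 at left and input at right, coloured by call, with the line of equality. RPB2 points spread along the line up to about 7, while input points form a cloud mostly between -2 and 3.

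In the 121 stretches above input the median absolute difference between RPB2 libraries was 0.35, against 0.56 in the other 357, as a description since the 121 were called on these libraries. Set against counting error alone, RPB2 replicates had a chi-square of 2.16 per degree of freedom over 428 stretches, and input replicates 1.28 over 434. Amplified and partly divided reads are not independent molecules, so these values are a description. The largest disagreement was at a tRNA-Tyr (GTA) gene near Abt1, with 2.76 in RPB2 replicate 1 and 0 in replicate 2, which was called below input at -1.78. That call therefore rests on replicate 2.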

How the data were processed

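Livers gave 12 ChIP-seq libraries, of which the 2 RPB2 and 2 input libraries were compared, grouped by title. The deposited files hold a coverage signal per base, apparently unscaled: in the authors' values a lone read adds 1.0 over 76 bp. The build is mm9, per the submitters' processing notes. The aligner, read filters and read weighting were not given in the sources used here. Per the labels' protocols, libraries were made with 15 PCR cycles, so reads are not independent molecules.

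Adjoining lines were joined into 532 stretches, and 5 spans not shared by all files were left out. GENCODE vM1, on the same build, named genes, and a cloverleaf search predicted tRNA genes with at least 17 paired stem bases (19 in longer stretches). 98 stretches matched neither. Repeats were not annotated. RNase P and 7SL genes were named by their neighbours in a GRCm38.p6 RefSeq table.

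Mean coverage was divided by a median-of-ratios factor over the 502 stretches above 0 in all 4 libraries. Stretches under the 0.1 quantile were left out. RPB2 minus input was tested with limma 3.58.1 (R 4.3.3), using the trend of variance on mean, in 2-sided tests with a Benjamini-Hochberg threshold of 0.05. The estimated prior degrees of freedom were infinite, so each standard error comes from the trend and not from the stretch's own replicates. The procedure was also run on simulated counts, drawn independently around the input means with most stretches unchanged. Such counts cannot test the choice of scaling or the effect of amplified or divided reads. At an unadjusted p under 0.05, 141 stretches were above and 77 below.

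Named stretches are the 20 with the largest difference among those above input with both RPB2 libraries over both input libraries, the 5 lowest among those below, and the annotated short RNA genes. Members and lists were chosen with earlier results of these data known. Others are named after their values were seen. Alternatives were other scalings, pseudocounts, filters, merged regions, gene or flanks alone, all 12 libraries in the fit, a replicate block and leaving out each library.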

Additional observations from a re-analysis of the deposited data

How the results depend on the processing

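The count above input, 121, was 57 with file totals, 214 with anchored scaling, 189 as deposited, 46 with the gene alone and 79 with the flanks alone. The count below, 34, was 208, 1, 4 and 1 in the first 4 of these, and 58 with at least 1 read in both input libraries, added after seeing the data. All 57 were among the 121, and all 121 were above with the other 2 scalings. The fit of all 12 libraries gave 90 and 30, of which 83 and 14 were shared. Leaving out 1 library gave 61 to 105 above and 8 to 36 below, where a lone library was assumed to vary like the other group. The replicate block gave 110 above and 19 below. Same-numbered libraries did not deviate together (r = -0.02 over 478 stretches). Input deviations rest on a median of 5.41 and 5.50 reads per stretch, so this value cannot show whether the numbers pair the libraries. Pseudocounts of 0.1 and 0.5, no filter and merged regions kept both counts within 1.5 times. Among named stretches, 4 values reversed. 7SK was -0.33 with file totals and -0.58 with the flanks alone, and the U6 gene near Skor1 was 0.56 anchored and 0.23 as deposited. The other reported values kept their sign: the flank ratio minus input was -0.29 over all tested stretches and -0.72 to -0.46 without 1 library. The lean to a start was 0.35 over single-gene stretches, 0.29 as a median, 0.63 without the Zfp259 stretch and 0.77 to 0.99 without 1 library. As a median, however, the RPB2 and input libraries overlapped. The upstream lean was 0.68 over all tested tRNA stretches, 1.07 far from starts, 0.59 near them, 0.62 as a median and 0.88 to 0.98 without 1 library. The difference near starts was 1.31 to 1.63 without 1 library. The cause of these changes was not tested. Input depth limits low stretches most, since 1 read changes their value.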

Other observations

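Some unmatched stretches hold the same run of 16 bases on either strand, ACTGTAGCTGTCTTCA, picked because it was the most widely shared. It lay in 14 of 98 unmatched stretches, in 1 of 434 matched ones and in 2.82% of all 532. Of the 13 tested unmatched stretches with it, 5 were above input for RPB2, and of the 76 without it 17 were. The share over all tested stretches was 25.3%. All 14 were among the 58 unmatched stretches of at least 440 bp, where 10 of the 42 tested without it were above. The 5 lie by Ddx19a, Zfp259, the U5 gene, Bhmt and Dap. A stretch inside Dap, 2116 bp past its start, had RPB2 coverage of 14.3 and 13.1 and input coverage of 0.30 and 0.56. A match in letters is a description, not a binding site. Repeats were not annotated, so whether the run belongs to a repeat was not tested.

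The stretch of 1 tRNA-Arg (TCG) gene overlaps the start of Polg, which encodes the mitochondrial DNA polymerase. RPB2 coverage there was 8.07 and 10.6 and input coverage 1.17 and 0.25 (log2 difference 2.85, limma adjusted p = 2.12e-08). At Prmt5, an arginine methyltransferase gene, the stretch of a tRNA-Arg (ACG) gene lies 21 bp from the start. It had 9.90 and 7.22 in RPB2 and 0.48 and 1.45 in input (log2 difference 2.23, limma adjusted p = 1.03e-05). Both were chosen after their values were seen.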
